A study of Mus musculus with 20 samples.

Results

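The 9 genes described here encode RNA-binding proteins and translation regulators of male germ cells: the DAZ-family genes Dazl and Boll, the DEAD-box helicase genes Ddx4 and Ddx25, the Y-box gene Ybx2, the cytoplasmic polyadenylation gene Cpeb1, the cap-binding scaffold gene Eif4g3, and the poly(A)-binding protein genes Pabpc1 and Pabpc2. They were chosen by symbol, and all 9 were found among the 23235 genes of the deposited expression table and among the 12956 genes tested. The study compared spermatocytes of Cxxc1-null mice with those of WT mice. Cxxc1 encodes a subunit of the SETD1 histone H3 lysine methyltransferase complexes that binds unmethylated CpG. The groups were Cxxc1-null and WT pachytene, Cxxc1-null and WT diplotene, and Cxxc1-null and WT meiosis II spermatocytes, with 2 libraries in each of the 6 groups. All came from the testes of adult males on a C57BL/6 background, and each of the 12 RNA libraries was made from 500 sorted cells by Smart-seq2, which copies full-length cDNA from poly(A) tails. The sources used here do not say how Cxxc1 was deleted or in which cells.

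Spermatocytes transcribe many messages before their proteins are made, and RNA-binding proteins hold those messages until transcription shuts down in spermatids. DAZ-family proteins bind motifs in untranslated regions and recruit poly(A)-binding proteins, which join the tail of a message to the eIF4G scaffold at its cap. CPEB proteins control the length of the tail, Y-box proteins package stored messages, and the DEAD-box helicases of the chromatoid body act in piRNA and mRNA handling. Mouse mutants of several of these genes have spermatocyte or spermatid arrest.

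Levels are FPKM, fragments scaled to transcript length and library size, so levels may be set side by side between genes. Differences are on the log2(FPKM + 1) scale ± standard error, from 1 limma model over the 12 libraries, and a change is called at a Benjamini-Hochberg adjusted p under 0.05 over all genes tested. Whether the libraries of a group were made from different animals is not stated in the labels. The p-values therefore rest on library-to-library spread alone, part or all of which may be technical. Cxxc1 averaged 9.38 FPKM in Cxxc1-null against 14.5 in WT pachytene, 8.93 against 15.6 in diplotene and 2.56 against 12.7 in meiosis II, and passed the test in meiosis II (-1.96 ± 0.25, limma adjusted p = 0.0024). WT pachytene replicate 2 and Cxxc1-null diplotene replicate 2 stood apart from the other libraries of their stage. The WT pachytene library correlated at r = 0.955 with the WT diplotene mean, against 0.915 for WT pachytene replicate 1, and the Cxxc1-null diplotene library at 0.891 with the mean of WT meiosis II libraries, where the other diplotene libraries reached 0.834 to 0.849. All 9 spermatocyte markers reached 1 FPKM in both libraries of every group. In meiosis II they summed to 1541 to 1729 FPKM in Cxxc1-null and 1813 to 1950 FPKM in WT libraries, and 0 of the 9 were called. Over the average of stages 1 of the 9, Piwil1, was called lower (-0.49 ± 0.13, limma adjusted p = 0.034). The summed level of the 8 round spermatid markers was 1908 to 4128 FPKM in Cxxc1-null and 7174 to 10111 FPKM in WT meiosis II libraries, and 0 of the 8 passed limma's test there (5 at an unadjusted p under 0.05). The sum was carried by Prm1, Prm2, Tnp1 and Tnp2, which with Tssk6 were lower in Cxxc1-null without overlap. Acrv1, Spaca1 and Catsper3 overlapped, the last with 88.8 and 149 FPKM in Cxxc1-null and 116 and 76 FPKM in WT meiosis II. Over the average of stages these 3 were called higher in Cxxc1-null and Prm2 lower (limma adjusted p = 0.037, 0.016, 0.012 and 0.035). The 9 Sertoli markers in the table summed to 210 to 223 FPKM in Cxxc1-null and 223 to 288 FPKM in WT meiosis II libraries, most of it Clu, and to 26.4 to 27.2 FPKM and 7.64 to 25.1 FPKM in pachytene. The Sertoli marker Dhh was called higher in meiosis II, with 12.6 and 16.4 FPKM in Cxxc1-null against 4.64 and 6.89 FPKM in WT (1.21 ± 0.25, limma adjusted p = 0.015). Dhh was also called higher over the average of stages (1.14 ± 0.14, limma adjusted p = 0.0011). The other tested Sertoli markers were lower in Cxxc1-null meiosis II and none was called: Clu -0.26, Cldn11 -0.36, Amhr2 -0.48, Sox9 -0.28 and Wt1 -0.4. The 6 Leydig markers, mainly Insl3, summed to 99.2 to 185 FPKM in Cxxc1-null and 47.4 to 267 FPKM in WT meiosis II libraries.

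Dazl was the 1 gene of the 9 with a called genotype difference. It encodes an RNA-binding protein that activates translation and is needed for germ cells to develop. In pachytene its level was 181 and 213 FPKM in Cxxc1-null libraries and 361 and 150 FPKM in WT libraries. In diplotene it was 27.7 and 21.8 FPKM in Cxxc1-null and 26.8 and 16.3 FPKM in WT. In meiosis II it was 14.3 and 13.4 FPKM in Cxxc1-null against 4.27 and 3.88 FPKM in WT. The genotypes overlapped in pachytene and diplotene, whereas in meiosis II both Cxxc1-null libraries lay above both WT libraries, with means of 13.8 ± 0.59 and 4.07 ± 0.28 FPKM (SD, n = 2 each), a ratio of 3.39. That difference passed the test (1.55 ± 0.37, limma adjusted p = 0.028), with an interval from 0.72 to 2.38. When any one of the 4 meiosis II libraries was left out it no longer passed, with a limma adjusted p of 0.11 to 0.12 and a difference of 1.49 to 1.6. Each such fit has 1 library in that group, which is taken to vary like the other groups, and its standard error was 0.48. Without the pair of libraries that stood apart it was 1.55 ± 0.25 (limma adjusted p = 0.0091). Of the markers given above, the protamine and transition protein genes and the summed spermatocyte markers were lower in the Cxxc1-null meiosis II libraries. Single spermatocyte markers went both ways there, with 0 of the 9 called by limma and 2 at an unadjusted p under 0.05. Pgk2, Sycp3, Sycp1 and Spo11 differed by 0.21, 0.16, 0.14 and 0.02. Ccna1, Piwil1, Sycp2, Hspa2 and Hormad1 differed by -0.56, -0.56, -0.55, -0.53 and -0.2. Dhh was higher in the Cxxc1-null meiosis II libraries, while the other tested Sertoli markers were lower. The part of these markers in the Dazl difference was not tested. The summed spermatogonial markers overlapped, at 11.4 to 11.7 FPKM in Cxxc1-null and 10.3 to 12.3 FPKM in WT meiosis II libraries. Most of each sum was Uchl1, and 2 of the 8 markers reached 1 FPKM in both libraries of each genotype.

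**Figure D1:**
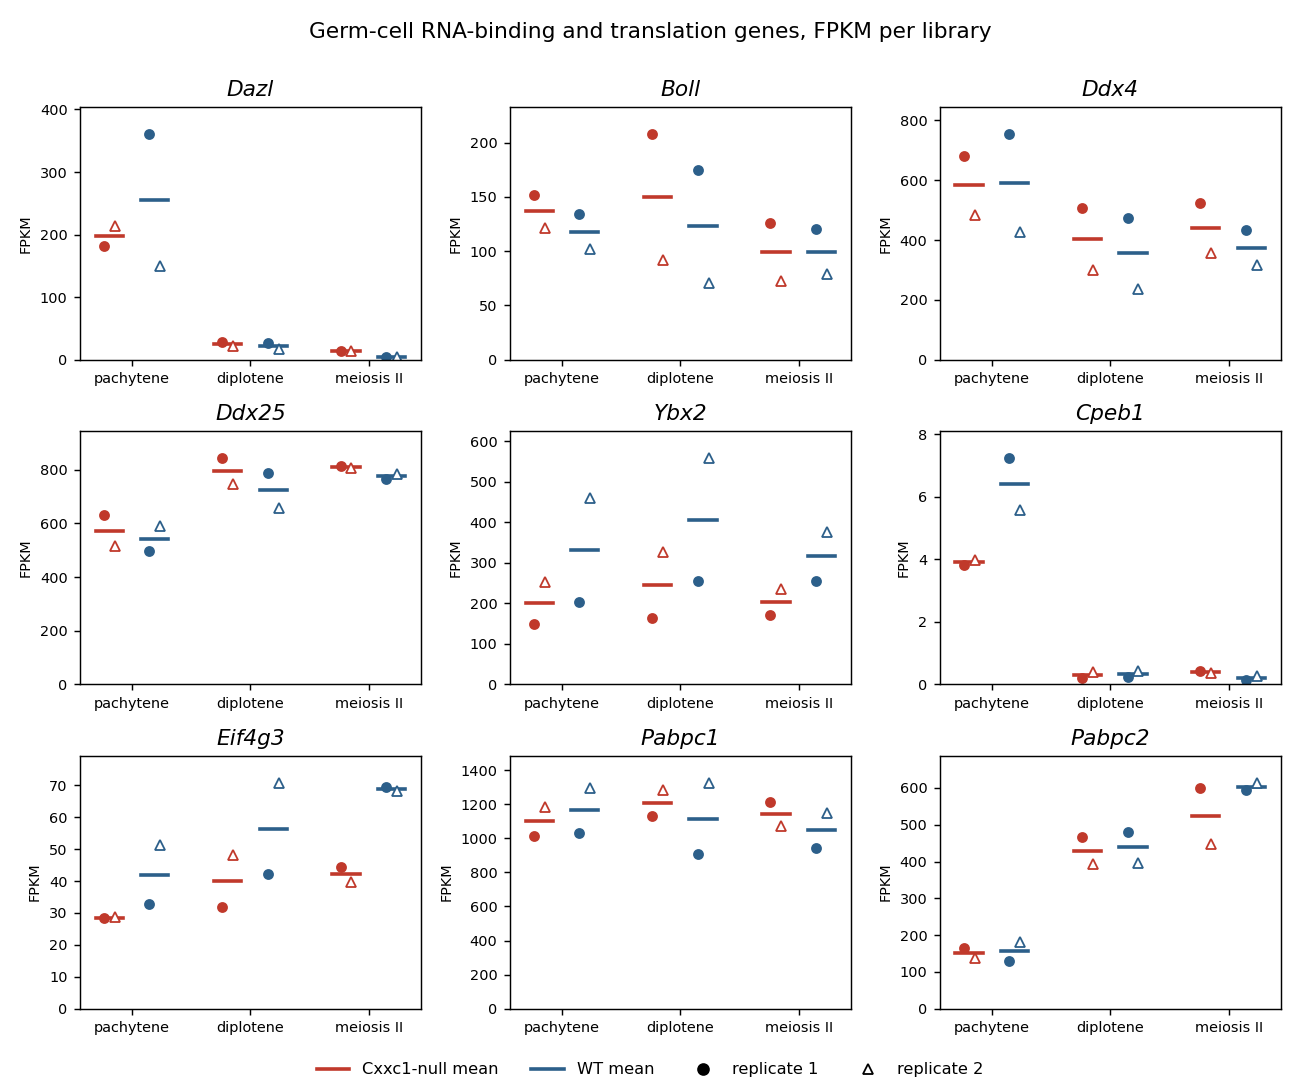
FPKM of each of the 9 genes (vertical axes, linear from 0, a scale per gene) at 3 stages, with Cxxc1-null libraries in red left of WT libraries in blue, circles for replicate 1, triangles for replicate 2 and bars for the group mean. Dazl and Cpeb1 are highest in pachytene, Pabpc2 is lowest there, and Eif4g3 and Ybx2 have lower Cxxc1-null means at every stage.

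Across stages Dazl had the widest range of the 9 genes by ratio, with 3.88 FPKM in its lowest and 361 FPKM in its highest library. It fell between pachytene and diplotene in both genotypes, with a difference of -2.95 ± 0.37 in Cxxc1-null cells (limma adjusted p = 0.002) and -3.42 ± 0.37 in WT cells (limma adjusted p = 0.00072), which left 12.5% and 8.42% of the pachytene mean. Without the pair of libraries that stood apart these differences were -2.78 ± 0.31 and -4.05 ± 0.31. From diplotene to meiosis II the Cxxc1-null difference was -0.78 ± 0.37 and did not pass (limma adjusted p = 0.12), while Dazl fell in WT cells (-2.11 ± 0.37, limma adjusted p = 0.0011). The meiosis II mean was 7.02% of the pachytene mean in Cxxc1-null and 1.6% in WT. The test of the difference between these stage steps gave 1.33 ± 0.53 with an unadjusted p of 0.03 and a limma adjusted p of 0.53, so a genotype effect on the step was not called. The Cxxc1-null step was called without WT pachytene replicate 1, without WT pachytene replicate 2, without both libraries that stood apart, and in a fit of its own 4 libraries.

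The promoter windows of Dazl and, further on, of Cpeb1 are shown because these genes fell most between pachytene and diplotene and because the protein encoded by Cxxc1 binds CpG. The window is the 250 bases before the transcription start in RefSeq on GRCm38.p6, a different build from the mm9 of the submitters' processing notes, and each CG is in capitals. For Dazl it is chr17:50293621-50293870, minus strand, printed 5′ to 3′:
Dazl: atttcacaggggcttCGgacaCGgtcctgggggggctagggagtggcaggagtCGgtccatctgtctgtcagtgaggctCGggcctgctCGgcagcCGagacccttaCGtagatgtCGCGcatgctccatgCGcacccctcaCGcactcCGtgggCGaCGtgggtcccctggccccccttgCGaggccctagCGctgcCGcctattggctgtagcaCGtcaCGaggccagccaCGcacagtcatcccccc
It holds 20 CG, more than 82.1% of the 32851 promoter windows in the table, whose median is 6 and upper quartile 16. One CCAAT box, searched as CCAAT on both strands, begins 47 bases before the start on the other strand. A match of these letters is a description and not a binding site.

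Boll, the ancestral member of the DAZ family, which is needed in mouse for spermatids to develop, had no called difference. Its level was 152 and 121 FPKM in Cxxc1-null and 134 and 102 FPKM in WT pachytene, and 208 and 92.2 FPKM in Cxxc1-null and 175 and 70.8 FPKM in WT diplotene. In meiosis II it was 126 and 72.7 FPKM in Cxxc1-null and 120 and 78.9 FPKM in WT. The genotypes overlapped at all 3 stages, and replicate 1 lay above replicate 2 in all 6 groups. Genotype differences were 0.22, 0.31 and -0.02, each ± 0.49, in pachytene, diplotene and meiosis II, and the interval in meiosis II ran from -1.10 to 1.06. The balance of the pair shifted with stage: the ratio of Boll to Dazl FPKM was 0.841 and 0.569 in Cxxc1-null and 0.371 and 0.68 in WT pachytene. In diplotene it was 7.51 and 4.23 in Cxxc1-null and 6.53 and 4.35 in WT, so that Boll was the higher of the pair in every diplotene library. In meiosis II it was 8.83 and 5.42 in Cxxc1-null against 28.0 and 20.3 in WT, with no overlap between genotypes. Boll averaged 99.3 FPKM in both meiosis II groups, so this gap restates the Dazl difference and is no further result.

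Ddx4, the mouse Vasa helicase of the chromatoid body and piRNA pathway, was abundant in every library. It had 681 and 485 FPKM in Cxxc1-null and 755 and 427 FPKM in WT pachytene, 506 and 301 FPKM in Cxxc1-null and 474 and 237 FPKM in WT diplotene, and 523 and 358 FPKM in Cxxc1-null and 434 and 316 FPKM in WT meiosis II. The genotypes overlapped at all 3 stages, and differences were 0.02, 0.22 and 0.22, each ± 0.42. The step from pachytene to diplotene was -0.56 ± 0.42 in Cxxc1-null cells (limma adjusted p = 0.33) and -0.76 ± 0.42 in WT cells (limma adjusted p = 0.20), and neither passed. As for Boll, replicate 1 was above replicate 2 in all 6 groups.

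Ddx25, a gonadotropin-regulated helicase needed for spermatid elongation, was steadier. Pachytene libraries had 631 and 514 FPKM in Cxxc1-null and 496 and 591 FPKM in WT, and diplotene libraries 843 and 749 FPKM in Cxxc1-null and 788 and 659 FPKM in WT. In meiosis II it had 814 and 808 FPKM in Cxxc1-null against 766 and 785 FPKM in WT. The meiosis II genotypes did not overlap, yet the difference of 0.06 ± 0.20 did not pass (limma adjusted p = 0.88), and its interval ran from -0.37 to 0.50. All 4 diplotene libraries lay above all 4 pachytene libraries. The steps were 0.48 ± 0.20 in Cxxc1-null cells (limma adjusted p = 0.09) and 0.41 ± 0.20 in WT cells (limma adjusted p = 0.15), and neither passed. After quantile normalization the Cxxc1-null step was 0.75 ± 0.23 and passed (limma adjusted p = 0.033).

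Ybx2, also known as MSY2, packages and stabilises stored messages in germ cells. Its level was 148 and 253 FPKM in Cxxc1-null and 203 and 461 FPKM in WT pachytene, and 163 and 327 FPKM in Cxxc1-null and 254 and 558 FPKM in WT diplotene. In meiosis II it was 172 and 234 FPKM in Cxxc1-null against 255 and 377 FPKM in WT. Only the meiosis II genotypes did not overlap. The Cxxc1-null mean was 60.4%, 60.4% and 64.3% of the WT mean in pachytene, diplotene and meiosis II. The stage differences of -0.66, -0.70 and -0.62, each ± 0.51, did not pass (limma adjusted p = 0.71, 0.62 and 0.48), nor did their average of -0.66 ± 0.30 (limma adjusted p = 0.15). An exact two-sided permutation of genotype within stage gave p = 0.0741 for the average, unadjusted. Here replicate 2 exceeded replicate 1 in all 6 groups.

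Cpeb1, which binds the cytoplasmic polyadenylation element and is needed in mouse for germ cells to pass pachytene, was the least abundant of the 9 genes. It had 3.83 and 3.97 FPKM in Cxxc1-null pachytene against 7.23 and 5.59 FPKM in WT pachytene. In diplotene it had 0.205 and 0.389 FPKM in Cxxc1-null and 0.222 and 0.411 FPKM in WT, and in meiosis II 0.409 and 0.359 FPKM in Cxxc1-null and 0.149 and 0.254 FPKM in WT. The pachytene genotypes did not overlap, with a Cxxc1-null mean at 60.8% of the WT mean. The difference of -0.59 ± 0.18 did not pass (limma unadjusted p = 0.0078, limma adjusted p = 0.25). The meiosis II genotypes did not overlap either, but in the other direction, with Cxxc1-null above WT. That difference of 0.21 ± 0.18 did not pass (limma adjusted p = 0.51). Between pachytene and diplotene Cpeb1 fell in both genotypes, with a difference of -1.92 ± 0.18 in Cxxc1-null cells (limma adjusted p = 0.0013) and -2.49 ± 0.18 in WT cells (limma adjusted p = 0.00059). The diplotene means were 7.62% and 4.94% of the pachytene means. Without the libraries that stood apart these differences were -2.02 ± 0.21 and -2.65 ± 0.21. The difference between the steps was 0.57 ± 0.25 (limma adjusted p = 1). Every diplotene and meiosis II value was under 0.5 FPKM, where the log2(FPKM + 1) scale compresses differences and the number of reads behind a value is not known.

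The Cpeb1 window, shown for the same reason as that of Dazl, is chr7:81454759-81455008, minus strand, printed 5′ to 3′ with each CG in capitals:
Cpeb1: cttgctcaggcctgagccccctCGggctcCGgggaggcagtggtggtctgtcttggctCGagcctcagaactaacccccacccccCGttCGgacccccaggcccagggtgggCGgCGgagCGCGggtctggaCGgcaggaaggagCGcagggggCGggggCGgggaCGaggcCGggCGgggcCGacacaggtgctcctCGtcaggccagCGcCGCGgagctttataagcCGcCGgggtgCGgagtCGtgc
It holds 25 CG, more than 89.3% of the windows, and no CCAAT. Both genes that fell most thus have windows above the upper quartile in CG, but so do windows of the other genes in the table: 32 for Eif4g3, 31 for Ddx4, 34 for Ddx25, 35 and 29 for the pair listed for Ybx2, and 11 and 33 for the pair listed for Boll, of which the window with 11 is the exception. Pabpc1 and Pabpc2 are named only. The E-box CACGTG, which itself contains CG and reads the same on both strands, begins 9 bases before the start of Boll and 29 before that of Ddx4, and 6.02% of all windows hold it. CCAAT was found for Boll, Dazl, Ddx25, Ddx4 and Ybx2, and 33.8% of all windows hold it on one strand or the other.

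Eif4g3 encodes eIF4GII, a scaffold that holds the cap-binding complex together and is needed in mouse for spermatocytes to leave meiotic prophase. Its level was 28.4 and 28.6 FPKM in Cxxc1-null and 32.8 and 51.3 FPKM in WT pachytene, and 31.8 and 48.1 FPKM in Cxxc1-null and 42.1 and 70.8 FPKM in WT diplotene. In meiosis II it was 44.4 and 39.8 FPKM in Cxxc1-null against 69.4 and 68.1 FPKM in WT. In pachytene and meiosis II the Cxxc1-null values were the lower without overlap, and in diplotene the genotypes overlapped. The Cxxc1-null mean was 67.7%, 70.8% and 61.3% of the WT mean at the 3 stages. Within stages the differences were -0.51, -0.47 and -0.70, each ± 0.30, and none passed (limma adjusted p = 0.60, 0.57 and 0.18). The average over stages was -0.56 ± 0.17 and missed the threshold (limma adjusted p = 0.053), with an interval from -0.95 to -0.17. It stayed uncalled under 14 of the alternative settings and was called under 6, including the replicate block given in the closing section. The exact two-sided permutation of genotype within stage gave p = 0.0185, the lowest among the 9 genes so tested. That p is not adjusted for the 9 genes, and the smallest p the test can give is 0.00926. The average was called after quantile normalization (limma adjusted p = 0.035), after scaling to a common median (limma adjusted p = 0.028) and when Cxxc1-null diplotene replicate 2, WT pachytene replicate 1 or WT diplotene replicate 1 was left out (limma adjusted p = 0.047, 0.027 and 0.035). Without the pair of libraries that stood apart it was -0.55 ± 0.17 (limma adjusted p = 0.072).

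**Figure D2:**
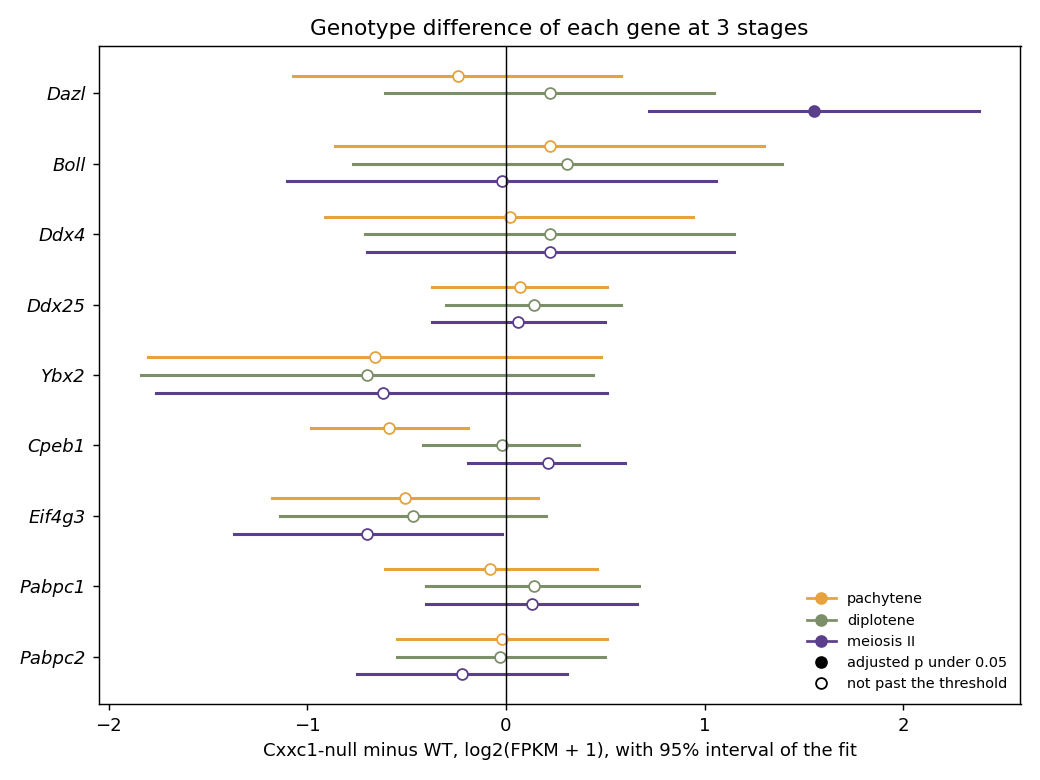
Cxxc1-null minus WT difference in log2(FPKM + 1) (horizontal axis) for each of the 9 genes in pachytene, diplotene and meiosis II, with the 95% interval of the fit as a line and filled points for adjusted p under 0.05. Only Dazl in meiosis II, at 1.55, is filled, while all 3 points of Eif4g3 and of Ybx2 lie below 0.

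Pabpc1, the general cytoplasmic poly(A)-binding protein that protects tails and aids initiation, was the most abundant of the 9 genes and ranked between 54 and 176 in the table by library. It had 1014 and 1185 FPKM in Cxxc1-null and 1032 and 1297 FPKM in WT pachytene, 1130 and 1286 FPKM in Cxxc1-null and 907 and 1326 FPKM in WT diplotene, and 1215 and 1070 FPKM in Cxxc1-null and 944 and 1149 FPKM in WT meiosis II. The genotypes overlapped at each stage. Differences were -0.08, 0.14 and 0.13, each ± 0.24, with intervals that reached from -0.61 to 0.67.

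Pabpc2, an intronless testis copy of Pabpc1, followed the stages. It had 166 and 138 FPKM in Cxxc1-null and 130 and 182 FPKM in WT pachytene, 467 and 393 FPKM in Cxxc1-null and 480 and 397 FPKM in WT diplotene, and 599 and 449 FPKM in Cxxc1-null and 594 and 614 FPKM in WT meiosis II. Every diplotene and meiosis II library lay above every pachytene library, and the genotypes overlapped at each stage. Pabpc2 rose between pachytene and diplotene by 1.49 ± 0.24 in Cxxc1-null cells (limma adjusted p = 0.0042) and by 1.5 ± 0.24 in WT cells (limma adjusted p = 0.0027). The genotype differences of -0.02, -0.03 and -0.22, each ± 0.24, did not pass. The ratio of Pabpc2 to Pabpc1 was 0.164 and 0.117 in Cxxc1-null and 0.126 and 0.141 in WT pachytene, and 0.493 and 0.419 in Cxxc1-null and 0.63 and 0.534 in WT meiosis II. The coding sequences of this pair are close, and the sources used here do not say how shared reads were assigned, which leaves the level of Pabpc2 and this ratio uncertain.

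**Figure D3:**
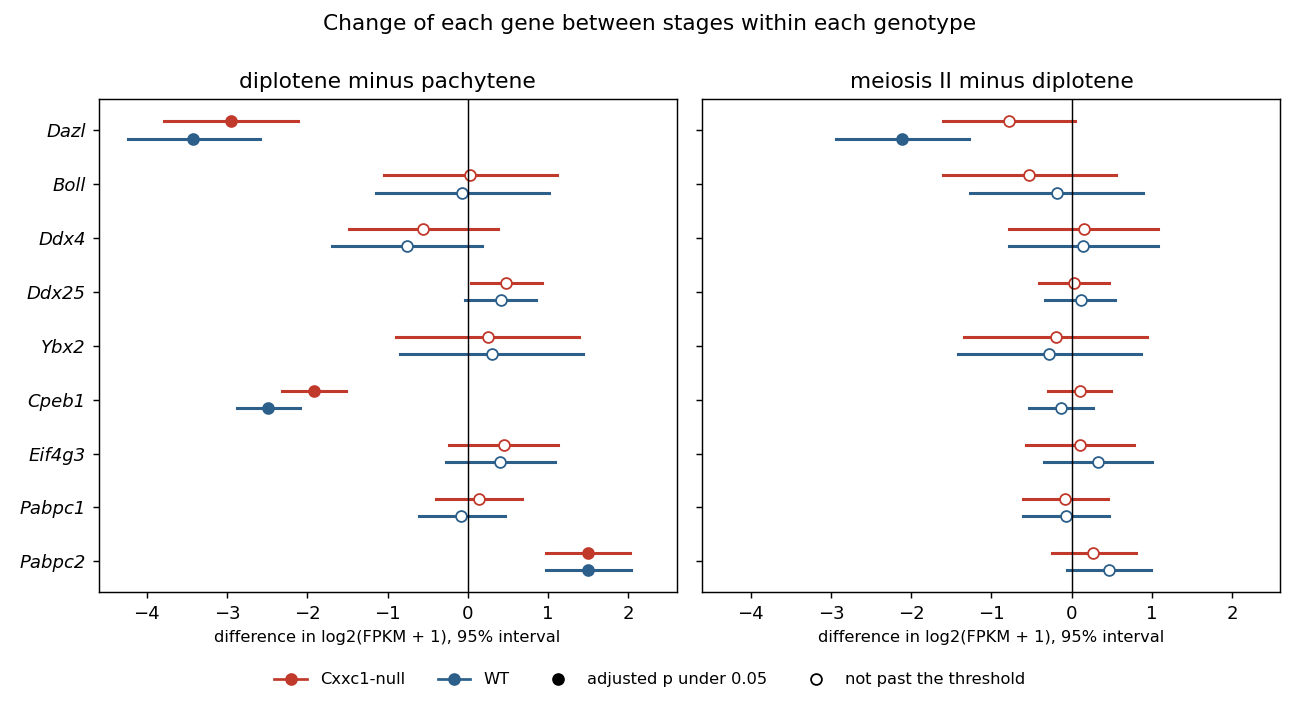
Difference between stages in log2(FPKM + 1) (horizontal axes) for each of the 9 genes, diplotene minus pachytene on the left and meiosis II minus diplotene on the right, in Cxxc1-null (red) and WT (blue) cells, with 95% intervals and filled points for adjusted p under 0.05. Dazl and Cpeb1 lie left of 0 and Pabpc2 right of 0 for the first step in both genotypes, and for the second step Dazl in WT is the filled point.

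Counted over the 9 genes, 0 were called between genotypes in pachytene, where 0.355% of all genes tested were called, and 0 in diplotene, where 0.787% were called. In meiosis II 1 was called higher, against 10.5% of all genes, and over the average of stages 0 were called, against 16.7%. At an unadjusted limma p under 0.05 the counts were 1, 0, 2 and 3 of the 9, beside 10.7%, 13.5%, 26.1% and 32.2% of all genes tested. The median difference of the 9 genes was -0.08, 0.14, 0.06 and 0.06, beside 0.04, 0.09, 0.02 and 0.05 over all genes tested. Genotypes did not overlap for 2 of the 9 in pachytene, both lower in Cxxc1-null, where 37.4% of all genes did not overlap, and for 0 in diplotene, where the share was 45.6%. In meiosis II 3 were higher and 2 lower without overlap, where the share was 56.5%. These counts lie near or below the background shares. The test of whether the genotype difference changed between stages called 0 of the 9 for diplotene against pachytene (0.0232% of all genes), 0 for meiosis II against diplotene (0.054%) and 0 for both together (0.054%), with 1, 1 and 2 of the 9 at an unadjusted p under 0.05, beside 2.11%, 8.29% and 8.77% of all genes.

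Between pachytene and diplotene 1 gene rose and 2 fell in Cxxc1-null cells, where 29.3% of all genes were called, and likewise in WT cells, where 26.5% were. These were Pabpc2, Dazl and Cpeb1 in both genotypes. Fitted alone, the 4 WT libraries of these stages called 0 of the 9, with limma adjusted p of 0.063 to 0.068 for these 3 genes. Spermatogonial markers summed to 25.8 to 31.7 FPKM in Cxxc1-null and 20.8 to 35.2 FPKM in WT pachytene. In diplotene they summed to 7.96 to 9.94 and 5.73 to 7.3 FPKM, and Uchl1 made up most of each sum at both stages. Round spermatid markers summed to 1384 to 2094 and 1946 to 2202 FPKM in pachytene. In diplotene these were 152 to 763 and 353 to 775 FPKM. Their part in the stage changes was not tested. From diplotene to meiosis II 0 were called in Cxxc1-null cells (44.1% of all genes; 0 of the 9 at an unadjusted p under 0.05) and 1 in WT cells (45.0%), which was Dazl. For 3 of the 9, Boll, Ddx4 and Ybx2, the library of the same replicate number was the higher in all 6 groups, as it was for 10.1% of all genes tested.

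By Pearson r of log2(FPKM + 1) over the 12 libraries, among 7860 genes with a mean of at least 5 FPKM, Dazl was most like Rnf2, a ubiquitin ligase of Polycomb complexes (r = 0.995), Ube2e1, a ubiquitin-conjugating enzyme (r = 0.994), and Ythdc2, an RNA helicase needed to enter meiosis (r = 0.993). In meiosis II these 3 averaged 19.0, 16.7 and 2.68 FPKM in Cxxc1-null against 8.55, 11.0 and 1.08 FPKM in WT. They were picked for likeness to Dazl over these same libraries, so their direction follows from the choice and is no further evidence. Cpeb1 was most like Polr2h (r = 0.985), Lass2 (r = 0.973) and H2afv (r = 0.972), Pabpc2 most like Mxra8 (r = 0.991), Ube3c (r = 0.990) and Efcab6 (r = 0.989), and Ddx4 most like Sdcbp (r = 0.981), Tug1 (r = 0.946) and Atl2 (r = 0.943). Among the 9 themselves, Pabpc2 ran opposite to Dazl (r = -0.960) and Cpeb1 (r = -0.959) and along with Ddx25 (r = 0.930). Cpeb1 ran along with Dazl (r = 0.922), and Ddx25 opposite to Cpeb1 (r = -0.911) and Dazl (r = -0.841). Ddx4 ran opposite to Ybx2 (r = -0.788) and Eif4g3 (r = -0.732) and along with Boll (r = 0.751). Eif4g3 ran along with Ybx2 (r = 0.730). Boll, Ddx4 and Ybx2 are the genes ordered by replicate number in all 6 groups. The 12 points share stages and replicate groups, so these values are a description.

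Related genes were read from 7 lists by role, whose counts stand beside the 10.5% of all genes called in meiosis II and the 16.7% called over the average of stages. Of 27 tested germ-cell RNA binders other than the 9, 3 were called higher and 1 lower in meiosis II, with a list median of 0.00 beside 0.02 over all genes, and 5 higher and 1 lower over the average of stages. Celf1, a regulator of splicing and mRNA stability, had 12.5 and 9.58 FPKM in Cxxc1-null against 4.20 and 4.03 FPKM in WT meiosis II (1.22 ± 0.20, limma adjusted p = 0.0061). Tsn, the RNA-binding protein translin, had 18.8 and 17.0 FPKM in Cxxc1-null against 7.67 and 8.15 FPKM in WT (1.08 ± 0.19, limma adjusted p = 0.0088). Elavl1, which encodes the stabilising protein HuR, had 43.0 and 45.3 FPKM in Cxxc1-null against 22.7 and 23.6 FPKM in WT (0.90 ± 0.17, limma adjusted p = 0.012). These 3 were named because they were called, and they lay above WT without overlap. In meiosis II 56.5% of all genes tested did not overlap, in either direction. Khdrbs3, a STAR-family splicing regulator, lay below WT, with 37.3 and 32.7 FPKM in Cxxc1-null against 69.5 and 62.8 FPKM in WT meiosis II. Its average over stages was -0.66 ± 0.12 (limma adjusted p = 0.0055).

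Of 33 other DEAD-box genes, 1 was called higher and 1 lower in meiosis II (list median 0.10). Ddx51, which acts in ribosome assembly, had 4.56 and 2.37 FPKM in Cxxc1-null against 14.4 and 9.84 FPKM in WT (-1.58 ± 0.32, limma adjusted p = 0.014), and Ddx39b, an mRNA export helicase, 26.3 and 24.8 FPKM in Cxxc1-null against 15.3 and 14.4 FPKM in WT (0.74 ± 0.19, limma adjusted p = 0.034). Of 5 Y-box and cold-shock genes, 0 were called by limma between genotypes (1 at an unadjusted p under 0.05 in meiosis II). Of 20 CPEB and polyadenylation genes, 2 were called higher and 2 lower in meiosis II (list median 0.02). Cpsf6, a subunit of a cleavage factor that selects polyadenylation sites, had 8.80 and 7.15 FPKM in Cxxc1-null against 2.07 and 2.59 FPKM in WT (1.43 ± 0.22, limma adjusted p = 0.0049). Papd4, a cytoplasmic poly(A) polymerase, averaged 6.08 FPKM in Cxxc1-null and 2.75 FPKM in WT (0.92 ± 0.25, limma adjusted p = 0.042), and was named after its values were seen. Cpeb3, a relative of Cpeb1, had 1.03 FPKM in both Cxxc1-null libraries against 2.21 and 2.51 FPKM in WT (-0.72 ± 0.15, limma adjusted p = 0.016). Over the average of stages Papd7, a noncanonical poly(A) polymerase, was lower (-0.43 ± 0.10, limma adjusted p = 0.016) and Cstf2, a cleavage stimulation subunit, higher (0.67 ± 0.16, limma adjusted p = 0.021).

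Of 13 eIF4F and cap-binding genes, 1 was called higher and 1 lower in meiosis II (list median -0.21). Eif4enif1, the shuttling and repressing partner of eIF4E, had 8.54 and 7.32 FPKM in Cxxc1-null against 18.4 and 16.7 FPKM in WT (-1.05 ± 0.22, limma adjusted p = 0.016). Eif4ebp1, an inhibitor of eIF4E, had 11.0 and 15.7 FPKM in Cxxc1-null against 3.97 and 4.13 FPKM in WT (1.49 ± 0.41, limma adjusted p = 0.047). Poly(A)-binding proteins and their partners had 0 of 22 called in meiosis II by limma (list median 0.03), with 2 at an unadjusted p under 0.05. Over the average of stages 1 was higher, Btg4, an adaptor of the CCR4-NOT deadenylase (0.68 ± 0.12, limma adjusted p = 0.0049), with 23.4 and 22.4 FPKM in Cxxc1-null against 11.2 and 9.07 FPKM in WT diplotene.

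Transcripts known from mouse work to be bound or regulated by one of the 9 proteins were the last list, of 12. In meiosis II 0 were called by limma (list median -0.39; 4 at an unadjusted p under 0.05), and over the average of stages Cdc25c, a phosphatase of the G2 to M transition, was higher (0.63 ± 0.17, limma adjusted p = 0.033) and Prm2, a protamine stored as mRNA in spermatids, lower (-1.60 ± 0.44, limma adjusted p = 0.035). Prm2 had 232 and 526 FPKM in Cxxc1-null against 1424 and 2138 FPKM in WT meiosis II. With Prm1, Tnp1 and Tnp2 of this list, it is among the spermatid markers whose sum is given above. Sycp1, Sycp3, Hspa2 and Pgk2 of this list are likewise among the spermatocyte markers. The median and counts of this list thus share genes with those markers and are no separate result. Of the 12, 8 rose and 2 fell from diplotene to meiosis II in Cxxc1-null cells, and 8 rose and 3 fell in WT cells, where 44.1% and 45.0% of all genes tested were called. In pachytene 0 of the 132 genes tested in the 7 lists were called by limma between genotypes, beside 0.355% of all genes. At an unadjusted limma p under 0.05 there were 5, beside 10.7% of all genes. In diplotene 1 of the 132 was called, beside 0.787%, with 11 at an unadjusted p under 0.05, beside 13.5%.

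**Figure D4:**
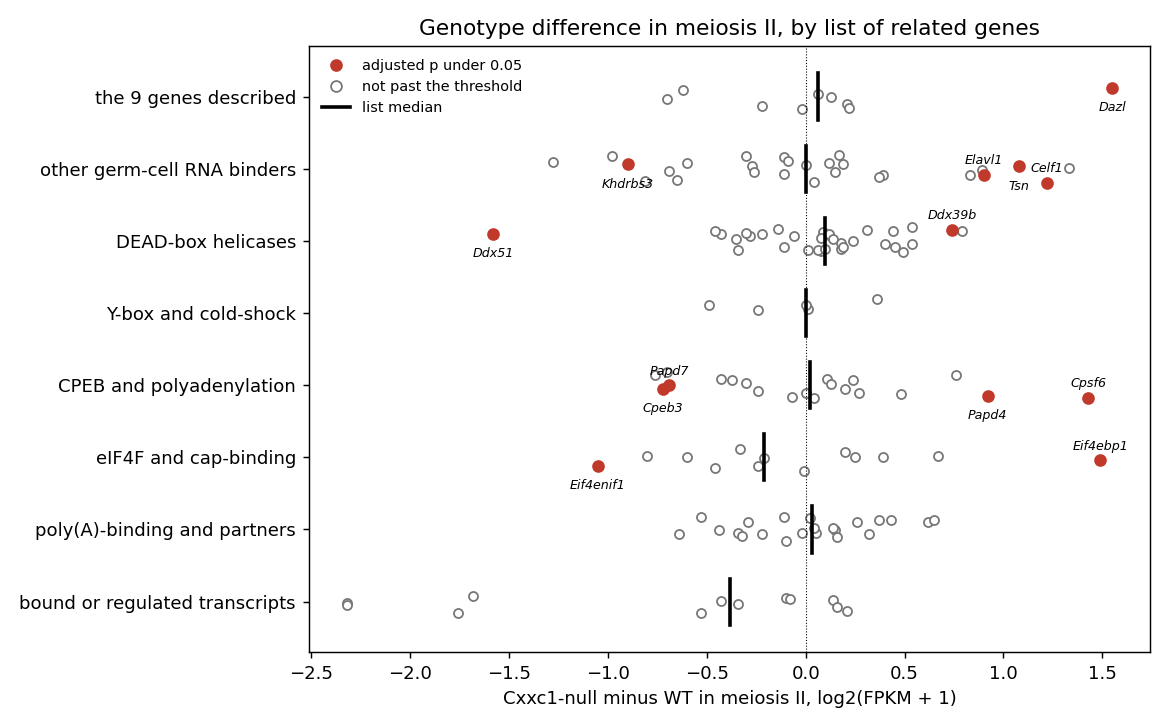
Cxxc1-null minus WT difference in meiosis II in log2(FPKM + 1) (horizontal axis) for the 9 genes and the 7 lists of related genes, with a point per gene, red and named where adjusted p is under 0.05, and a bar at each list median. Dazl at 1.55 lies farthest right, and the list medians lie between -0.39 and 0.10.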

How the data were processed

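RNA libraries were grouped by title, with 2 Cxxc1-null and 2 WT libraries at each of 3 stages. The authors deposited 1 table of FPKM values for 23235 genes. Cufflinks 2.2.1, TopHat2 2.1.1 and the mm9 build are named, without roles, per the submitters' processing notes. Read depth is unknown. Of 3860 genes under 0.3 FPKM in every library, 15.2% to 22.7% shared the most common ratio between libraries (tolerance 1.05%), so no counts were recovered and no count test was run. Strand is not described in the labels, so overlapping and antisense genes are uncertain.

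Values were transformed to log2(FPKM + 1), which understates changes of low genes. Genes that reached 1 FPKM in 2 or more libraries (12956) entered 1 limma 3.58.1 model (R 4.3.3) of 6 group means, with 6 residual degrees of freedom, a mean-variance trend and two-sided Benjamini-Hochberg adjusted p at 0.05. The model was tested on simulated data. Single averages were tested by exact permutation of genotype within stage, and 2 libraries against 2 cannot go below p = 0.333. All 9 genes are named. Up to 4 genes per related list were named by smallest p among those called in meiosis II or over the average of stages, and the 3 genes most like each of the 4 members with the widest WT range. Papd4 was named beyond this rule, after its values were seen. The 9 genes and all lists were chosen with earlier results of these data known. Alternatives covered the pseudocount, the filter, 2 scalings, separate fits, a replicate block, stages joined by replicate number, each library left out and both libraries that stand apart left out. The 8 H3K4me3 libraries were not analysed here.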

Additional observations from a re-analysis of the deposited data

How the results depend on the processing

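Counts here are of the 9 genes called. Between genotypes in meiosis II the count stayed at 1 under all alternatives but the 4 that leave out a meiosis II library (0 to 1 with a library left out). Over the average of stages it was 0, but 1 after quantile normalization, 1 after scaling to a common median, and 0 to 2 with a library left out. With the replicate number as a block it was 2, Eif4g3 (limma adjusted p = 0.029) and Ybx2 (limma adjusted p = 0.0083). With stages joined by replicate number it was 0 (limma adjusted p = 0.22 for Eif4g3 and 0.35 for Ybx2). The numbers were not shown to pair the libraries: over the 15 pairs of groups, r of same-numbered deviations from the group means lay between -0.253 and 0.42, with 11 over 0.1. Diplotene against pachytene in WT cells gave 0 in a fit of its own libraries and 4 with the block, in place of 3, and in Cxxc1-null cells 4 with the block and 4 after quantile normalization, in place of 3. For meiosis II against diplotene the count was 2 in WT cells after quantile normalization, and in Cxxc1-null cells, 1 in a fit of its own libraries, 1 without both libraries that stand apart and 0 to 1 with a library left out. The cause of these changes was not tested. No value with an unadjusted p under 0.05 changed sign, while 53 of the other 74 did under at least 1 alternative. Over all genes tested, calls ranged from 219 to 1813 in meiosis II (1358 as reported), from 434 to 2695 over the average of stages (2158), from 1 to 123 in pachytene (46) and from 4 to 480 in diplotene (102). They ranged from 444 to 4417 between pachytene and diplotene in Cxxc1-null cells (3794) and from 3 to 4115 in WT cells (3431). Separate fits could not be made for the average or for the interaction. With 2 libraries a group, and read depth unknown, values of Cpeb1 after pachytene are the least certain.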
